A study of Homo sapiens with 20 samples.

Results

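The genes described here are the interferon receptor subunits IFNAR1, IFNAR2, IFNGR1, IFNGR2 and IFNLR1 together with the signal transducer STAT2 and the interferon regulatory factors IRF1, IRF7 and IRF9. They were found by their symbols in a table of mRNA levels, where all 9 are listed among 36076 genes. The study asked how decitabine (DAC), a cytosine analog that traps and depletes DNA methyltransferases, changes lung cancer cells, and measured mRNA by sequencing in 6 human lung cancer lines and open chromatin by Omni-ATAC-seq in 4 of them. Omni-ATAC-seq marks accessible DNA by the insertion of a transposase. The mRNA-seq lines were A549, CL1-0, CL1-5, PC9, H1299 and H1792, and the Omni-ATAC-seq lines A549, CL1-5, PC9 and H1299. DAC-treated cells received 100 nM decitabine for 72 hours and were then grown without drug for 3 days, and Mock-treated cells received PBS. Each line gave 1 library per treatment and assay, so a change within a line has no replicate check, and lines serve as the replicates of a change across lines. CL1-5 is a subline of CL1-0, so these 2 of the 5 pooled lines are related.

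Interferons are secreted proteins that warn neighbouring cells of infection or misplaced nucleic acid. Type I interferons bind IFNAR1 with IFNAR2, type II interferon binds IFNGR1 with IFNGR2, and type III interferons bind IFNLR1 with IL10RB, after which Janus kinases attached to the receptor phosphorylate STAT proteins. STAT2 joins IRF9 in a complex that binds interferon-stimulated response elements (ISRE) in target genes, IRF1 carries part of the type II response, and IRF7 drives interferon genes themselves and is in turn switched on by interferon, which closes a feedback loop.

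The members lie on 7 chromosomes (hg19/GRCh37 coordinates, GENCODE annotation). IFNAR2 (chr21:34577587-34637980), IFNAR1 (chr21:34696692-34732170) and IFNGR2 (chr21:34775719-34851655) sit in a row on the plus strand of chromosome 21, with IL10RB (chr21:34638672-34683725) among them. IFNGR1 is at chr6:137518620-137540586, IFNLR1 at chr1:24480658-24514449, STAT2 at chr12:56735381-56753987, IRF1 at chr5:131776132-131844411 and IRF7 at chr11:612553-615983, all 5 on the minus strand. IRF9 is at chr14:24630443-24637252 on the plus strand. All 9 are protein-coding.

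RefSeq promoter windows, which run from 250 bases before to 50 bases after a start in GRCh38.p14 and matched GRCh37 once each, were found for 7 of the 9 members. IRF7 and IFNAR2 have no entry. The ISRE core TTTCNNTTTC was searched on both strands and was in none of the members' windows, against 3.57% of all 35116 windows. The gamma-activated site TTCNNNGAA, the kind of element STAT dimers bind, reads the same on both strands and is in 7.66% of all windows. It was found in the windows of IRF1, IRF9 and IFNLR1, whose bases before the start are shown with the match in capitals, 5′ to 3′ on the strand of the gene, because the matches in IRF1 and IRF9 lay inside a peak of open chromatin in every Omni-ATAC-seq library. The IRF1 stretch is chr5:131826466-131826715 (minus strand), the IRF9 stretch chr14:24630224-24630473 (plus strand) and the IFNLR1 stretch chr1:24513780-24514029 (minus strand), all in GRCh37.
IRF1: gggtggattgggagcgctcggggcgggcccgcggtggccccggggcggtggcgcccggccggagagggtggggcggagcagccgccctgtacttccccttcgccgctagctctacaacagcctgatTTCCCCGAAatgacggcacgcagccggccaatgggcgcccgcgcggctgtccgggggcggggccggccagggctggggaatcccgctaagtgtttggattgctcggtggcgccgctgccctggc
IRF9: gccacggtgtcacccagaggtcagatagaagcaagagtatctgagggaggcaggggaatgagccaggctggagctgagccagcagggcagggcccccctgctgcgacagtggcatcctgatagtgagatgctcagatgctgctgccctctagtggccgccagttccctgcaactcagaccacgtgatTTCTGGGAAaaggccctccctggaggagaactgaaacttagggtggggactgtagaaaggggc
IFNLR1: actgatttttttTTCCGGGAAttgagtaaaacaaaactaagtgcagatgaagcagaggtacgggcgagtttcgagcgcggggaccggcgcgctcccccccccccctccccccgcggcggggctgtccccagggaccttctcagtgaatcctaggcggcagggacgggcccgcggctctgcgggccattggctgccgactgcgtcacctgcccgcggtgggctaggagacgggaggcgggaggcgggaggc

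Counted from the start, the match lay at -124 to -116 in IRF1, at -63 to -55 in IRF9 and at -238 to -230 in IFNLR1. A match of letters is a description of the window and not a measured binding site. The promoters also differ in CpG sites, the substrate of the methyltransferases that decitabine depletes. The IRF1 window holds 36 of them, that of IFNLR1 31 and that of STAT2 25, whereas the IRF9 window holds 7, under the median of 14 over all windows. IFNGR2 had the most CpG sites, with 44.

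Expression is given as FPKM, fragments counted on a gene divided by its length and by the depth of the library, which the authors deposited. The whole reads behind the values could be recovered, and the 5 lines other than H1299 had 22234485 to 25303899 of them in a library. H1299 stands apart, with 59735913 (Mock) and 52634234 (DAC). Even read numbers make up 85.5% and 81.9% of its values from 1 to 20 reads, against 39.2% to 41.5% in the other lines. Of 13381 genes above 0.1 FPKM in the other 10 libraries, 1366 (10.2%) are at 0 in both H1299 libraries, all 13 mitochondrial protein genes included. A gene at 0 in H1299 is therefore only called listed at 0. The epithelial keratins, a check on the lung carcinoma label, were near 0 in CL1-0, with KRT8 at 0.154 FPKM in Mock against 37.8 to 1580 in the other lines, and fibroblast collagen COL1A1 stood at 68.6 FPKM in H1792. Summed over 8 leukocyte markers the levels were 0.846 to 5.04 FPKM in Mock and 1.73 to 8.73 after DAC, with CD3E at or under 3 reads in every library. Both upper ends are A549, where the monocyte marker CD14 stood at 4.23 FPKM in Mock and 7.38 after DAC. The highest of the other leukocyte markers in A549 was LYZ, at 0.608 and 0.829 FPKM. PTPRC, found on leukocytes in general, was at 0 and 0.0236. A549 also had the largest IRF7 fold. Whether these markers have a part in any change given here was not tested, and in bulk samples fewer cells of a type cannot be told apart from less RNA per cell.

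Mock-treated lines carried mRNA for each receptor subunit. On the per-length scale the members were ordered by their mean log2(FPKM + 0.1) over the 6 lines. The order ran from IFNGR2 through IFNGR1, IFNAR1, STAT2, IRF1, IFNAR2, IRF7 and IFNLR1 down to IRF9. By mean FPKM, IRF7 (2.997) stood above IFNAR2 (2.666). IFNGR2 had a mean of 15.0 ± 6.33 FPKM (SD, n = 6 lines) and IFNGR1 of 13.5 ± 3.92, and IRF9 had 0.584 ± 0.95. The mean log2 difference was smaller than its SD between lines for IFNGR2 and IFNGR1, IFNAR1 and STAT2, IRF1 and IFNAR2, IFNAR2 and IRF7, and IRF7 and IFNLR1. None of the 8 neighbouring pairs passed an exact two-sided sign-flip permutation test after Benjamini-Hochberg adjustment over the pairs, where the lowest adjusted p was 0.1. STAT2 above IRF1 was the only pair with the same direction in 6 of 6 lines (mean log2 difference 1.23 ± 0.73, exact permutation p = 0.0312, the smallest the design allows). Any such difference depends on the gene lengths used, here 6.114 kb for STAT2 and 7.805 kb for IRF1, whose annotation includes long transcripts. Undivided reads in Mock were closest in H1299 (3692 for STAT2, 3532 for IRF1) and farthest apart in CL1-0 (1083 and 234). Other lengths were not tried.

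The members also differed in how far they varied between untreated lines. IFNAR1, a signal-transducing subunit of the type I receptor, was the most even, with a 1.72-fold range between the highest and the lowest line. IRF1 spanned 7.25-fold, IFNLR1 5.98-fold and IRF7 5.68-fold. For IRF1 (7.92 FPKM) and IFNLR1 (3.14) the highest line was H1299, whose reads stand apart as described above. The next highest were 5.28 FPKM in H1792 for IRF1 and 2.17 in PC9 for IFNLR1, so the order of these 3 ranges rests on H1299. IRF9 ranged from listed at 0 in H1299 to 2.51 FPKM in CL1-5, which held 258 reads where the other 4 lines held 14 to 29.

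**Figure D1:**
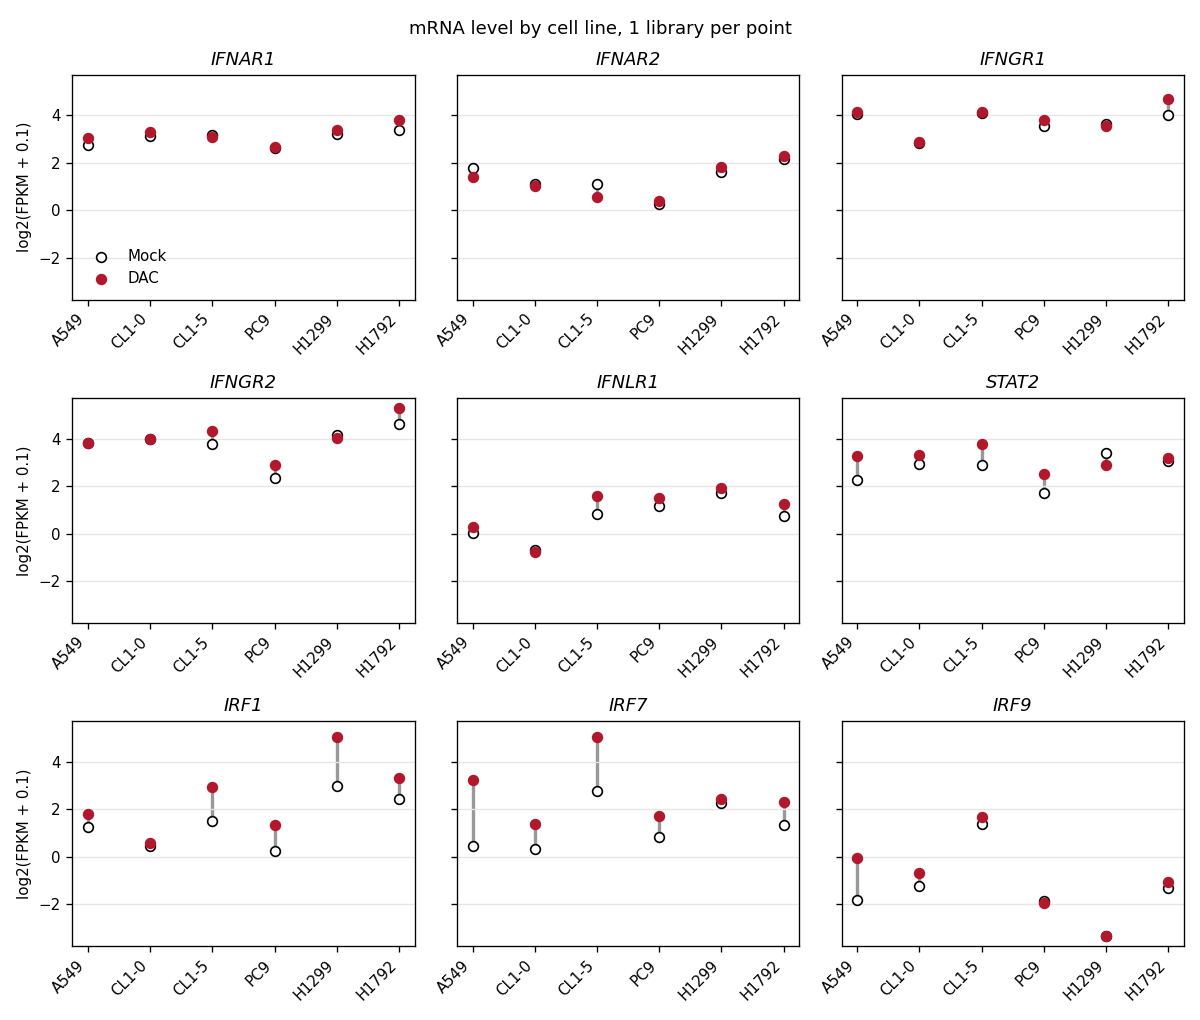
Each panel plots 1 gene as log2(FPKM + 0.1) on the vertical axis against the 6 cell lines, with open points for the Mock library, red points for the DAC library and a grey line joining the 2. The receptor subunits differ by less than 1 log2 unit within each line, whereas IRF7 is far higher after DAC in A549 and CL1-5, IRF1 in H1299, and IRF9 is listed at 0 in H1299.

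IRF7, the factor that turns on interferon genes, had the largest change across lines. It went from 1.28 to 9.21 FPKM in A549 and from 6.68 to 32.7 FPKM in CL1-5. Levels went from 1.18 to 2.51 in CL1-0, from 1.68 to 3.17 in PC9 and from 2.42 to 4.82 in H1792. H1299 was nearly level, at 4.74 and 5.24 FPKM. The DAC value was above the Mock value in every line, although levels of the 2 groups overlapped, since CL1-5 in Mock was above 4 of the DAC libraries. The fold of DAC over Mock was 7.20 in A549 (95% interval 5.63 to 9.33), 4.89 in CL1-5 (4.42 to 5.41), 2.13 in CL1-0 (1.62 to 2.83), 1.99 in H1792 (1.64 to 2.43) and 1.88 in PC9 (1.46 to 2.44). In H1299 it was 1.11, with an interval of 0.953 to 1.28 that includes no change. Intervals are exact Clopper-Pearson intervals on the recovered reads, halved in H1299, and cover counting error only.

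IRF1, an early interferon-gamma target and itself a transcription factor, followed another order of lines. Its level went from 7.92 to 33.4 FPKM in H1299, the line where IRF7 had its smallest change. It went from 2.75 to 7.498 in CL1-5, from 1.09 to 2.45 in PC9, from 5.28 to 9.90 in H1792 and from 2.27 to 3.36 in A549. CL1-0 held 1.27 FPKM in Mock and 1.39 after DAC. The fold was 4.21 in H1299 (3.999 to 4.44), 2.72 in CL1-5 (2.47 to 3.004), 2.25 in PC9 (1.88 to 2.69), 1.87 in H1792 (1.74 to 2.02) and 1.48 in A549 (1.30 to 1.68), and 1.09 in CL1-0 with an interval of 0.921 to 1.30. IRF1 was thus above its counting error in 5 of 6 lines, and IRF7 in 5 of 6, with different lines missing. In the annotation 22.9% of the IRF1 exon bases overlap the antisense gene IRF1-AS1. The kit was stranded, but the strand setting of the counting is not given in the sources used here, so reads of the 2 genes cannot be told apart.

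Over the 5 lines the study pooled (all but H1792), limma with the line as a block gave a log2 difference of 1.42 ± 0.37 (SE) for IRF7 (adjusted p = 0.256, Benjamini-Hochberg over 22603 genes) and of 1.05 ± 0.27 for IRF1 (adjusted p = 0.254). These correspond to geometric mean folds of 2.67 and 2.07. None of the 9 members passed the adjusted threshold of 0.05 in limma, where 0.119% of all genes were called higher and 0 genes lower, and limma voom on the recovered reads called none of them either while calling 0.788% of all genes higher. At an unadjusted p under 0.05, 2 of the 9 members were higher, IRF1 and IRF7, with 8.07% of all genes higher at that limit and 4.4% lower. Both were also higher in 5 of 5 lines, as were 6.76% of all genes. With H1792 added, both were higher in 6 of 6 lines, as were 4.55% of all genes, with adjusted p of 0.167 for IRF1 and 0.179 for IRF7 in limma, which then called 0.232% of all genes higher and 0 lower. A share of 2 in 9 rests on 2 genes, and the members were not chosen blind to these data.

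**Figure D2:**
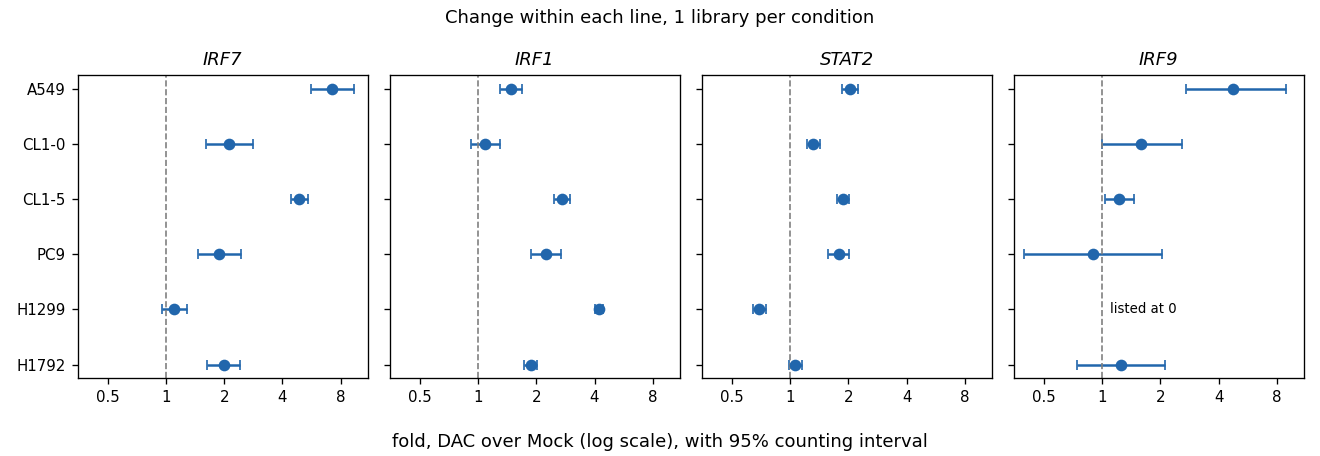
The fold of DAC over Mock is plotted on a log axis for IRF7, IRF1, STAT2 and IRF9 in each of the 6 lines, with bars for the 95% counting interval and a dashed line at no change. IRF7 is farthest to the right in A549 and CL1-5, IRF1 in H1299, and STAT2 in H1299 is the only point of the 4 genes whose interval lies below 1.

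STAT2, the partner of IRF9 in the type I and type III response, differed between lines in its direction. It went from 4.64 to 9.49 FPKM in A549, from 7.27 to 13.7 in CL1-5, from 3.13 to 5.59 in PC9 and from 7.51 to 9.91 in CL1-0. H1792 was nearly level at 8.37 and 8.90 FPKM. H1299 was the exception, with 10.6 FPKM in Mock, the highest of the Mock lines, and 7.34 after DAC. The fold was 2.04 in A549, 1.88 in CL1-5, 1.79 in PC9 and 1.32 in CL1-0, each with an interval above 1, and 0.695 in H1299 (0.645 to 0.748). Over the 5 lines the log2 difference was 0.52 ± 0.23 (SE), which did not pass the test (limma adjusted p = 0.408), and without H1299 it was 0.78 (limma adjusted p = 0.242).

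IRF9, which gives the STAT2 complex its DNA binding, rested on few reads. In A549 it went from 15 reads (0.184 FPKM) to 84 reads (0.875 FPKM), a fold of 4.74 with an interval of 2.72 to 8.85. CL1-0 went from 29 to 58 reads (fold 1.59, 1.00 to 2.58) and CL1-5 from 258 to 284 (fold 1.23, 1.03 to 1.46). PC9 held 14 reads in both libraries and H1792 29 and 35, and at this depth no difference was detectable in either. The 5-line log2 difference was 0.50 ± 0.31 (limma adjusted p = 0.519), with the H1299 value entering as 0, and without A549 it was 0.18 (limma adjusted p = 0.830). IRF9 shares 23.9% of its exon bases on the same strand with a readthrough gene, ENSG00000259529, so its reads may have been split by the counting.

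The receptor subunits moved little beside IRF7 and IRF1. IFNLR1, the subunit that limits the type III response to epithelial and a few other cells, went from 1.67 to 2.89 FPKM in CL1-5 (fold 1.73, 1.46 to 2.06), from 1.597 to 2.27 in H1792, from 2.17 to 2.77 in PC9, from 3.14 to 3.70 in H1299 and from 0.929 to 1.13 in A549, and was at 0.525 and 0.494 in CL1-0. It was higher in 4 of the 5 pooled lines, with a log2 difference of 0.30 ± 0.16 (limma adjusted p = 0.470). CL1-0 had the lowest IFNLR1 level under both treatments.

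IFNGR2, which brings JAK2 to the interferon-gamma receptor, had intervals above 1 in 3 lines. They were H1792, from 24.4 to 38.9 FPKM, CL1-5, from 13.5 to 19.7, and PC9, from 4.93 to 7.33. A549 (14.0 and 14.2 FPKM) and CL1-0 (15.6 and 15.9) were level, and H1299 was lower, at 17.7 and 16.1. The 5-line log2 difference was 0.21 ± 0.14 (limma adjusted p = 0.560). IFNGR2 shares 15.0% of its exon bases with TMEM50B on the opposite strand.

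IFNGR1, the ligand-binding chain of the same receptor, was between 6.99 and 16.98 FPKM in Mock and changed mostly in H1792, from 16.0 to 26.1 FPKM (fold 1.63, 1.504 to 1.76). PC9 had a fold of 1.21 (1.09 to 1.34), and the intervals of the other 4 lines include 1. Its 5-line log2 difference was 0.07 ± 0.10 (limma adjusted p = 0.771). H1792 is outside the pooled 5 lines and was the line with the highest fold for both chains of the interferon-gamma receptor and for IFNAR1.

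IFNAR1 stayed between 6.11 and 10.5 FPKM in Mock and between 6.21 and 14.0 after DAC, with folds from 0.935 in CL1-5 to 1.33 in H1792 and a log2 difference of 0.10 ± 0.11 (limma adjusted p = 0.687). IFNAR2, its partner chain, was the only member with a negative mean, at -0.13 ± 0.16 (limma adjusted p = 0.735). It was lower in A549, from 3.40 to 2.60 FPKM (fold 0.764, 0.652 to 0.895), and in CL1-5, from 2.06 to 1.39 (fold 0.675, 0.550 to 0.826). CL1-0 (2.09 and 1.93) differed by less than its counting error, as did PC9 (1.095 and 1.236) and H1792 (4.37 and 4.77), and H1299 was at 2.98 and 3.42. The 2 lines with lower IFNAR2 were the 2 with the highest IRF7 folds. IFNAR2 shares 14.7% of its exon bases on the same strand with the readthrough gene IFNAR2-IL10RB.

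IL10RB, the second chain of the type III receptor and a neighbour in the chromosome 21 cluster, was lower after DAC in 5 of 5 pooled lines, as were 4.39% of all genes. The size was small, with a log2 difference of -0.11 ± 0.11 (limma adjusted p = 0.656), and in H1792 IL10RB went from 3.26 to 5.30 FPKM. Across the 12 libraries the 3 members of the cluster had levels that varied together, with Pearson r of 0.885 between IFNAR1 and IFNGR2, 0.779 between IFNAR2 and IFNGR2 and 0.718 between IFNAR1 and IFNAR2. Members outside the cluster reached similar values, with 0.722 between STAT2 and IFNGR2 and 0.621 between STAT2 and IFNAR1. These are descriptions over 12 libraries from 6 lines, in which both libraries of a line share its genome and copy number.

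**Figure D3:**
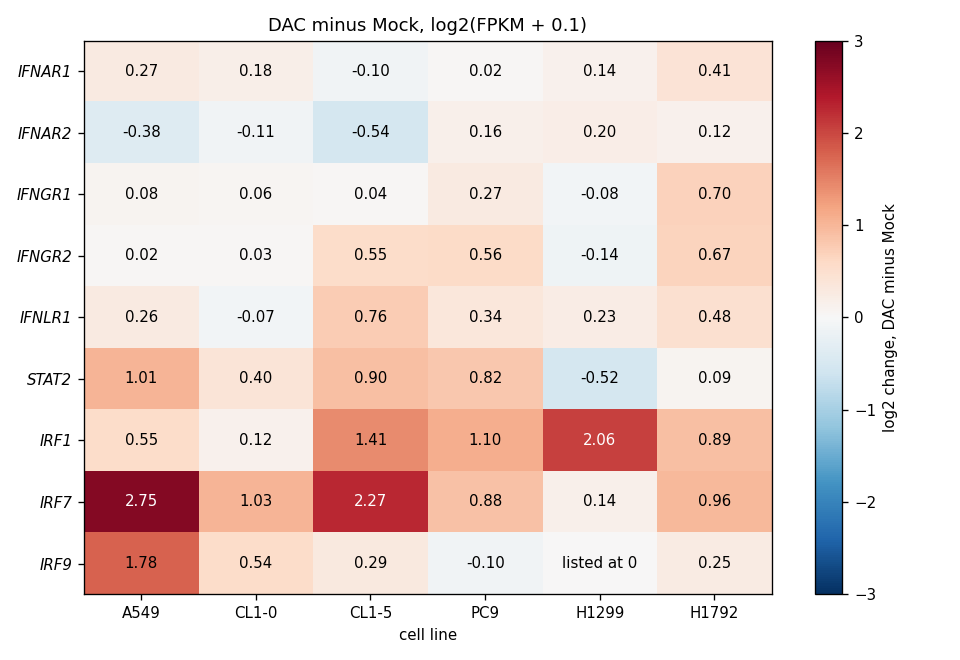
The grid gives the DAC minus Mock difference in log2(FPKM + 0.1) for each member (vertical) in each line (horizontal), from blue for lower to red for higher. The deepest red cells are IRF7 in A549 and CL1-5 and IRF1 in H1299, and the upper 4 receptor genes stay between -0.54 and 0.70.

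At a limit of 2-fold on the log2(FPKM + 0.1) scale, 3 of the 9 members were higher in A549 (STAT2, IRF7 and IRF9), where 15.5% of all genes passed that limit upwards. In CL1-5 2 members passed it (IRF1 and IRF7; 7.25% of all genes), and in CL1-0 1 (IRF7; 7.6%), in PC9 1 (IRF1; 10.2%) and in H1299 1 (IRF1; 8.18%). No member passed it in H1792, where IRF7 was just under it and 10.3% of all genes passed. None was 2-fold lower in any line, which 2.14% of all genes were in CL1-0, 3.1% in PC9, 3.15% in H1299, 5.05% in CL1-5, 5.79% in H1792 and 6.69% in A549.

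The rest of the pathway was read from a list of 33 kinases, STATs, IRFs and inhibitors, of which 32 could be tested. None passed the adjusted threshold in limma, and at an unadjusted p under 0.05 2 of the 32 were higher and 1 lower, near the shares of all genes (8.07% and 4.4%). The median log2 difference was 0.15 against 0.07 over all genes and 0.30 over the 9 members. Higher in 5 of 5 lines, as 6.76% of all genes were, were 2 of the 32. They were STAT3, which transmits interleukin-6 signals (0.51 ± 0.13, limma adjusted p = 0.266), and SOCS1, an inhibitor of Janus kinases that interferon induces (0.84 ± 0.25, limma adjusted p = 0.288). Lower in 5 of 5 lines, as 4.39% of all genes were, were IRF2BP1, PIAS2 and IL10RB. STAT3 and SOCS1 were singled out for this count after their values were seen. The largest mean differences of the list were those of PTPN6, a haematopoietic phosphatase (1.22 ± 0.53, limma adjusted p = 0.406), and STAT6, the interleukin-4 transducer (0.88 ± 0.49, limma adjusted p = 0.482). Both rest largely on CL1-5, where the differences were 3.21 for PTPN6 and 3.42 for STAT6, and without that line the means were 0.72 and 0.25 (limma adjusted p = 0.509 and 0.568). PTPN6 was also at 2.55 in H1299, and without H1299 its mean was 0.88. IRF2BP1, a corepressor of IRF2, had the lowest (-0.37 ± 0.12, limma adjusted p = 0.303), followed by PIAS2 (-0.24 ± 0.16, limma adjusted p = 0.549).

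The interferon genes themselves were at the limit of detection. Of 14 in the table, 4 could be tested, and the most abundant reached 59 reads in any library. IFNL1, a type III interferon, was higher in 4 of 5 lines and at 0 in the other (log2 difference 1.72 ± 0.50, limma adjusted p = 0.286), with its largest difference in CL1-5 (3.27). IFNL2 and IFNL3, which are near-identical copies and may share reads, had differences of 1.00 and 0.93. These rest on CL1-5, where they were 3.35 and 3.48, while A549 and H1299 had 0.58 to 1.05 and CL1-0 and PC9 were at 0. Without CL1-5 both genes fell under the minimum level for testing. Their mean Mock levels over the 5 lines, 0.0300 and 0.0383 FPKM, were under that minimum, so both passed it only through the DAC libraries. IFNE, an interferon of epithelia, had a difference of -0.02. IFNB1, the first interferon that many cells make, had at most 2 reads in any library, and was named here after its values were seen.

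Genes that interferon switches on were read from a list of 40, all tested. BST2, a membrane protein that tethers budding viruses, rose in 5 of 5 lines (log2 difference 4.57 ± 0.44, limma adjusted p = 0.0254) and was the only gene of the list past the adjusted threshold. It was past it in 6 of 15 alternatives, with a log2 difference of 2.97 to 5.08 and an adjusted p of 0.00488 to 0.248 over them. Of the 5 fits that left out a line, the call held without H1299 (limma adjusted p = 0.00769) and was lost without A549 (0.156), CL1-0 (0.0881), CL1-5 (0.110) or PC9 (0.0868). At an unadjusted p under 0.05, 24 of the 40 were higher and none lower, against 8.07% and 4.4% of all genes. The median log2 difference was 1.14. CXCL10, TRIM22, XAF1, IFI44L and MX2 had mean Mock levels of 0 to 0.0576 FPKM over the 5 lines. They passed the minimum mean of 0.1 only through the DAC libraries. Such genes could hardly come out lower, and they are part of these counts and of the median. After BST2 the largest was IFI27 (3.50 ± 0.69, limma adjusted p = 0.175), and the smallest were ADAR (0.25 ± 0.20), which edits double-stranded RNA, and EIF2AK2 (0.30 ± 0.28), the kinase PKR.

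The list split the lines more sharply than the members did. Its median log2 difference was 2.71 in CL1-5, 1.65 in A549, 0.44 in H1299, 0.38 in PC9, 0.23 in H1792 and -0.01 in CL1-0. At least 2-fold higher were 37 of the 40 in CL1-5, 29 in A549, 17 in H1299, 9 in H1792, 7 in PC9 and 1 in CL1-0. CL1-5 and A549 were also the 2 lines with the largest IRF7 and STAT2 differences. Below them the order broke down. H1299 came next after these 2 for the targets, with IRF1 higher by 2.06 on the log2 scale, IRF7 by 0.14 and STAT2 by -0.52, and CL1-0 had an IRF7 difference of 1.03 beside a target median of -0.01.

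**Figure D4:**
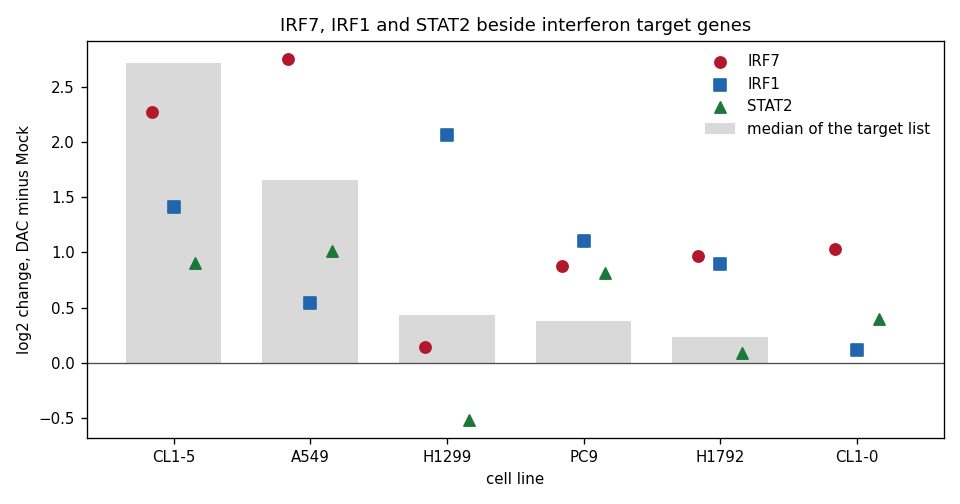
Grey bars give the median log2 change, DAC minus Mock, of the 40 interferon target genes in each of the 6 lines, ordered from the highest, and points give IRF7 (red circles), IRF1 (blue squares) and STAT2 (green triangles). The bars fall from 2.71 in CL1-5 to -0.01 in CL1-0, where the IRF7 point still stands at 1.03.

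The genes whose levels were most like those of a member were ranked by Pearson r of log2(FPKM + 0.1) over the 12 libraries. IRF7 was closest to DDX58 (r = 0.943), IFIT2 (0.923) and HERC6 (0.905), and the latter 2 are on the target list. STAT2 was closest to INE1 (0.903), THEMIS2 (0.898) and SAMHD1 (0.841). The nearest to IRF1 were LINC01252 (0.967), PLEKHB2 (0.942) and EMILIN2 (0.929), and those nearest to IFNLR1 were NT5E (0.960), FOSL1 (0.938) and EPHA2 (0.924). Those nearest to IRF9 were KIAA1614 (0.955), DCDC2B (0.951) and BLZF1 (0.944), with both H1299 libraries of IRF9 entering at 0. Over the 10 libraries without H1299, a choice made after seeing the data, these 3 had an r of 0.930, 0.913 and 0.938, and others were nearer, led by C3orf70 (0.962), WIF1 (0.962) and FLG-AS1 (0.960). Within the members IRF7 had an r of 0.667 with STAT2 and 0.523 with IRF1. IRF9 had an r of 0.550 with IRF7 and -0.243 with IRF1 over 12 libraries, and of 0.840 and 0.398 without H1299. The 12-library neighbours were the highest among those of the 22603 tested genes that have a symbol and are not members. They rest on few libraries and carry no test.

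Open chromatin at the members' starts was compared by rank, since peaks were called in each library alone and the depth of each is unknown. For each gene the strongest peak within 3000 bp of the start was ranked by its fold enrichment among 18094 protein-coding genes of the same list, and the percentile is given. The lists grew after DAC in each line, from 58734 to 78199 peaks in A549 and from 45354 to 63541 in H1299. Libraries labelled CL1-5 and PC9 went against their labels. The 142 genes that had mRNA in PC9 but not CL1-5 had a peak in 88.0% of cases under the Mock label CL1-5, and in 46.5% under the Mock label PC9. For the 84 genes of the reverse pattern these shares were 48.8% and 83.3%. The deposited lists of these samples are also named for the other line. They are called by their labels here, and rank differences are also given over A549 and H1299 alone.

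Each member had a peak near its start in all 4 Mock libraries and, apart from IFNLR1 in A549, in all 4 DAC libraries. These were 36 cases in Mock and 35 after DAC, and 34 and 33 at a q-value under 0.01. Missing that limit was the IFNLR1 peak in Mock A549, Mock H1299, the DAC library labelled PC9 and DAC H1299 (−log10 q-value 1.70 to 1.98). Of the 18094 genes, 74.3% to 82.4% had one in a given library, and 11922 (65.9%) had one in all 8. The STAT2 peak ranked high among the 18094 protein-coding genes, between the 92.7th and the 99.9th percentile in the 8 libraries. IFNLR1 and IFNGR2 ranked lowest of the members in Mock, at percentiles of 27.2 to 34.1 and 28.2 to 35.2. Not every ranked IFNGR2 peak covered the start. Under the label PC9 it lay at -2414 to -2075 in Mock and at -2578 to -1890 after DAC. In the DAC library labelled CL1-5 it began 225 bases after the start. The stretch of IRF9 and that of IRF1 shown above lay within peaks in the 8 libraries, except for the first bases of IRF9 in Mock H1299, whose peak began at -214. The IFNLR1 peak began at -375 in Mock A549 and at -668 in the Mock library labelled CL1-5, so that it covered the match at -238, and at -125 in the Mock library labelled PC9 and -148 in Mock H1299, short of it. In the 3 DAC libraries that had an IFNLR1 peak it began at -369 to -580.

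IRF7 stood lower in rank after DAC in 4 of 4 lines. The lists differ in length and depth, so a rank is a place within a list and not a measured change of accessibility. Its percentile went from 73.4 to 57.3 in A549, from 66.0 to 52.5 in the library labelled CL1-5, from 65.8 to 56.3 in that labelled PC9 and from 74.1 to 56.2 in H1299. The 4 DAC values were all below the 4 Mock values. The mean difference was -14.3 ± 3.65 percentile points (SD, n = 4 lines; p = 0.125 by an exact sign-flip permutation test, which cannot give less with 4 lines). In A549 the peak had the same borders in both lists (chr11:615613-616155, over the start), with a fold enrichment of 7.75 in Mock and 5.94 after DAC. Over A549 (-16.2) and H1299 (-17.9) alone the mean difference was -17.02. Of 11922 genes with a peak in all 8 libraries, 11.1% were lower in 4 of 4 lines, and 0.629% had a mean difference at or below that of IRF7. Ranked among those 11922 genes alone, so that each list held the same genes, IRF7 differed by -22.7, -17.04, -13.1 and -25.8 points in A549, the libraries labelled CL1-5 and PC9 and H1299 (mean -19.7 ± 5.69, exact permutation p = 0.125), and 8.73% of them were lower in 4 of 4 lines. This ranking was added after seeing the data.

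IFNGR1 was the member with a higher rank in 4 of 4 lines (mean 7.23 ± 3.17 percentile points, exact permutation p = 0.125), as were 8.25% of the genes with a peak throughout. Among those genes alone its mean was 10.6 ± 4.60 points, and 9.62% were higher in 4 of 4 lines. The fold enrichment of its peak was higher after DAC only in A549 (6.65 and 7.17) and lower in the library labelled CL1-5 (5.97 and 5.54), in that labelled PC9 (7.19 and 6.84) and in H1299 (7.52 and 6.98). IFNLR1 was lower in 4 of 4 lines, with differences from -17.9 points in A549, where no peak was listed after DAC, to -0.24 points in H1299. Several of its peaks were near the calling limit, as given above. The other 6 members moved up in some lines and down in others. IRF1, whose mRNA was higher in all 4 of these lines, had a mean difference of 0.89 ± 8.14 points, and only the library labelled CL1-5 was higher (12.8 points). Over A549 and H1299 alone the mean differences were -3.67 for IRF1, -4.39 for IFNGR2, -4.02 for IFNAR2 and 0.25 for IFNAR1, each opposite in sign to the mean over 4 lines, and 6.88 for IFNGR1, -9.06 for IFNLR1, -1.95 for STAT2 and -2.05 for IRF9.

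The annotated IRF1 gene includes long transcripts and reaches both upstream and downstream of the start used here, with most of it downstream. Over this gene, DAC peaks without an overlapping Mock peak were 2 of 6 in A549 and 3 of 7 in H1299. They were 5 of 11 in the library labelled CL1-5 and 7 of 11 in that labelled PC9. In each line 1 peak was found only in Mock. For IFNGR2 such DAC-only peaks were 2 of 4 in A549 and 3 of 5 in H1299. They were 3 of 4 in the library labelled CL1-5 and 3 of 6 in that labelled PC9. STAT2, IRF7 and the other members had at most 1 per line. These counts rest on few peaks and were not tested against the lists. IRF9 and IFNGR1 kept 1 peak in every library. The lists as a whole also held more peaks after DAC. Peaks without an overlapping Mock peak made up 44.2% of the whole DAC list in A549, 38.6% in that labelled CL1-5, 43.3% in that labelled PC9 and 49.1% in H1299, and Mock peaks without an overlapping DAC peak 25.8%, 29.7%, 27% and 28.3% of the Mock lists in the same order.

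**Figure D5:**
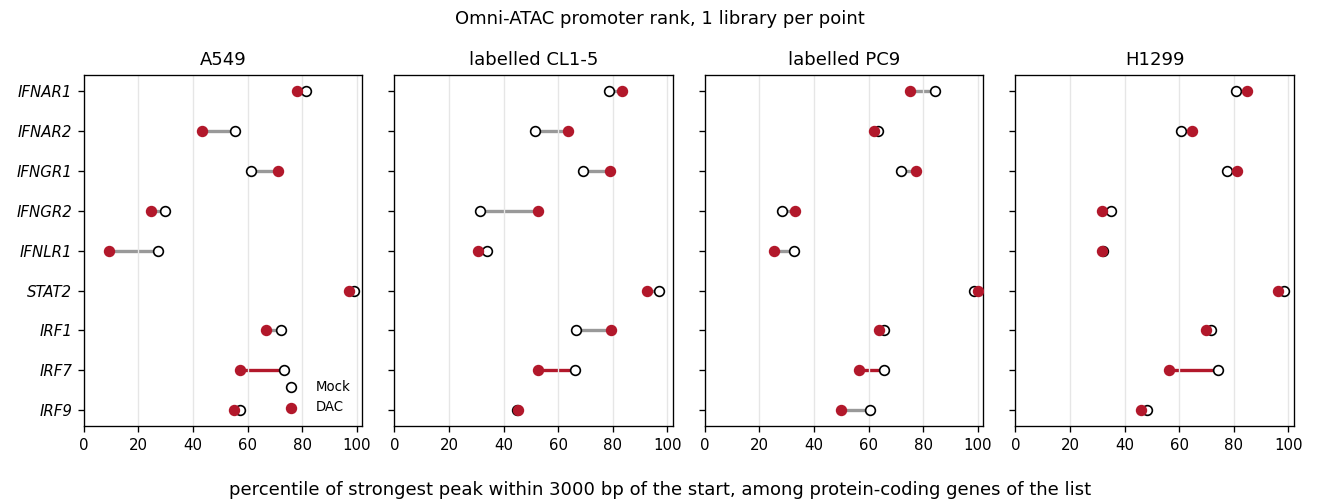
Each panel is 1 line of the Omni-ATAC-seq libraries and plots the percentile of the strongest peak near the start (horizontal axis, 0 to 100) for each member, with open points for Mock, red points for DAC and a line joining them (red for IRF7). The IRF7 line runs to the left in all 4 panels, and STAT2 stays above 92.7.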

How the data were processed

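mRNA-seq (12 libraries, 6 lines) and Omni-ATAC-seq (8 libraries, 4 lines) were analysed, grouped by the line and treatment of their labels. The authors aligned reads to hg19, counted them per GENCODE gene and deposited FPKM values normalized with DESeq2 1.24.0, beside a mean normalized signal per gene. Their own comparison columns (log2 fold changes, test scores, p-values) were not used. The deposited peak lists, made by the authors with BWA, MACS2 2.2.5 and ChIPseeker 1.20.0, give per peak a score, a fold enrichment ratio and −log10 p- and q-values. Columns of values without a sample numbered 0. From FPKM and the mean signal, 100% of values came out as whole reads (within 0.02 of a read). A minimum mean FPKM of 0.1 left 22603 genes, whose log2(FPKM + 0.1) entered limma 3.58.1 (R 4.3.3; cell line as block, intensity trend) with Benjamini-Hochberg adjustment at 0.05. This scale understates changes of low genes. By the study's reporting summary, treatments of a line were drawn from 1 parental culture, and deviations of Mock and DAC libraries correlated at 0.731 to 0.900 within lines and at most 0.114 between lines, so the line is a block. The fit was tested on simulated data in which a changed gene had the same fold in every line. It called 88 of 100 genes changed by 2 log2 units and 89 of 100 changed by 3, each in the right direction. Folds that differ between lines, as those of IRF7 and IRF1 did, were not simulated. Ranks and intervals used Python 3.11.15, numpy 2.4.6 and scipy 1.17.1, and figures matplotlib 3.10.9. Named genes are the 9 members, IL10RB, the 2 highest and 2 lowest mean differences among the tested genes of each list, and the 3 genes most correlated with each of 5 members. STAT3, SOCS1, IFNB1, the marker genes and the genes nearest to IRF9 without H1299 were named after their values were seen. Members and lists were chosen with earlier results of these data known. Alternatives were H1792 included, no block, other pseudocounts, filters and scalings, no trend, voom, each line left out, a 1000 bp window and a q-value under 0.01. A rank among genes with a peak in all libraries, the lines labelled CL1-5 and PC9 left out together, and correlations without H1299 were added after seeing the data.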

Additional observations from a re-analysis of the deposited data

Results flagged for a closer look

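A value far from the others was looked for in 45 groups of 4 or 6 values, 1 per line. Chance alone would mark about 1 in 20 of these groups, and 3 stood out. IFNGR2 in Mock was lowest in PC9, at 2.33 on the log2(FPKM + 0.1) scale. The IRF9 log2 difference was highest in A549, at 1.78. The IFNAR2 promoter percentile after DAC was lowest in A549, at 43.2. Separately, the STAT2 log2 difference of H1299, -0.52, ran opposite to those of A549, CL1-5 and PC9, each of which was higher by more than 0.5. With 1 library per line and treatment that difference between lines was not tested.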

How the results depend on the processing

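No member passed the adjusted threshold under any of the 15 alternatives (14 for IRF9, which a mean FPKM of at least 1 leaves out), and no pooled mRNA difference of a member changed sign. That of IRF7 ranged from 1.08 (without A549) to 1.73 (without H1299), with limma adjusted p of 0.172 or more, and that of IRF1 from 0.79 to 1.28, with 0.0987 or more. The line block is part of the design; without it (no replicate block) 10 genes were called higher and no target gene. All genes called higher, 27 as reported, numbered 53 with H1792, 0 at a pseudocount of 1, 2 with no filter, 17 after quantile normalization, 6 with no trend and 178 with voom, which called 1 gene lower. With a line left out, 0 (without A549 and without CL1-5), 5 (CL1-0), 12 (PC9) and 22 (H1299) genes were higher and 0 to 1 lower. Target genes called, 1 as reported, numbered 0 at a pseudocount of 1, with no filter, after quantile normalization and with no trend, 8 with voom, and 0 to 1 with a line left out. Over all genes the median log2 difference was 0.07, and 0.17 after rescaling to a common sum and -0.04 after quantile normalization; the pathway median was 0.27 in the former. Promoter percentile differences turned for IRF1 (-3.10), IFNGR2 (-1.30) and IFNAR2 (-3.08) without the library labelled CL1-5, for IFNAR1 (1.71) without that labelled PC9 and for IFNAR2 (-0.37) without H1299. With the lines labelled CL1-5 and PC9 both left out, which was added after seeing the data, they turned for IRF1 (-3.67), IFNGR2 (-4.39), IFNAR2 (-4.02) and IFNAR1 (0.25). Exchanging the labels CL1-5 and PC9 leaves means over lines as they are, and ranking among genes with a peak in all libraries changed no sign. Causes were not tested. Depth limits IRF9 and the interferon genes.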
